A study of Mus musculus with 13 samples.

Results

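The RNA polymerase I (Pol I) transcription genes are the 10 genes Polr1a, Polr1b, Polr1c, Polr1d, Polr1e, Rrn3, Ubtf, Taf1a, Taf1b and Taf1c, taken by symbol from the 18939 genes with counts and the 49686 genes with FPKM values. All 10 were found in both. They were followed in 13 single mouse oocytes: 3 SN GV oocytes, 3 NSN GV oocytes, 4 MII oocytes matured from SN oocytes (SN-MII) and 3 matured from NSN oocytes (NSN-MII). SN (surrounded nucleolus) and NSN (non-surrounded nucleolus) are the chromatin types of the germinal vesicle (GV) oocyte, and MII is the mature egg arrested in the second meiosis. Every oocyte came from C57BL/6 females aged 3 to 4 weeks, 48 h after PMSG, and in all groups mRNAs for FBL-GFP and H2B-mCherry were injected and oocytes were kept for 6 h in 10 μM Cilostamide, an inhibitor that holds the GV stage. The SN or NSN type was read from the FBL-GFP pattern in the nucleolus, so an oocyte's type is an imaging call, and the protein used for it is itself a nucleolar protein. No uninjected oocytes were analysed here.

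Pol I works in the nucleolus, where it transcribes the ribosomal RNA genes. The transcription factor UBTF coats the ribosomal DNA, the SL1 complex (TBP with the TAF1 subunits) marks its promoter, and RRN3 couples the polymerase to SL1 so that it can start. A growing oocyte makes ribosomal RNA at a high rate, and transcription falls silent as it reaches the SN type, so that the mature egg runs on stored mRNA. The values below are of the mRNAs of the machinery, not of ribosomal RNA, and give no measure of Pol I activity.

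All 10 mRNAs took a smaller share of the library at MII than at GV, and no member was called between NSN and SN oocytes at either stage. Outside the 10, the Pol I subunits Twistnb and Cd3eap were called higher at MII, also within SN oocytes but not within NSN oocytes. Polr1d, a subunit that Pol I shares with Pol III, fell most among the well-counted members, by 3.42 ± 0.20 on the log2 scale (SE), or 10.7-fold. Taf1a, the SL1 subunit of highest level, fell least, by 0.44 ± 0.14. Taf1a alone made up between 67.9% and 83.2% of the summed FPKM of the 10 genes in each MII oocyte.

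The promoters of Polr1d and Taf1a are shown because the 2 genes were nearly level at GV and far apart at MII. Each is a RefSeq window on GRCm38.p6 from 250 bases before to 50 bases after a RefSeq transcript start, given 5′ to 3′ on the gene's strand. Where RefSeq had several starts for a gene (Ubtf, Taf1a and Taf1c), the one nearest the GENCODE M21 gene start was used. For Polr1d the RefSeq start lies 296 bases inside the GENCODE gene, so its window does not cover the 250 bases before the GENCODE start. The distance was 222 bases for Taf1b and 150 bases for Ubtf, and at most 26 bases for the others. Capitals mark the words searched on both strands. They were the CCAAT box, the GC box as GGGCGG, the ETS family word as CCGGAAG, the NRF1 word as GCGCATGC, the E-box as CACGTG and the TATA box as TATAAA.
Taf1a, chr1:183388735-183389034, plus strand: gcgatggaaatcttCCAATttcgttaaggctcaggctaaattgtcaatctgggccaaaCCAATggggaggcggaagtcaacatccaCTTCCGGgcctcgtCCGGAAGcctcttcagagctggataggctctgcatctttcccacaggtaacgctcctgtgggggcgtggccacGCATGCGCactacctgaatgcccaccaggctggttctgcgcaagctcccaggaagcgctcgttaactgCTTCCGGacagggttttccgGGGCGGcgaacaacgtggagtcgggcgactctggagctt
Polr1d, chr5:147077096-147077395, plus strand: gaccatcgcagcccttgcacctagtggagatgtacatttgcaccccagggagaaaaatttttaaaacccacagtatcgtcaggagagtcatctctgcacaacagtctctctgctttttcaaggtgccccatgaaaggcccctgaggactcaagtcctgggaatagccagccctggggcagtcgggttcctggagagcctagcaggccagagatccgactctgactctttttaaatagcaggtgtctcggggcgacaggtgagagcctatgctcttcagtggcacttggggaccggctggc
This Polr1d window held none of the 6 words. The Taf1a window held the ETS word at 3 positions, a GC box, an NRF1 word and CCAAT at 2 positions. Over the 10 genes, the ETS word was found in 6 promoters (Polr1c, Polr1e, Rrn3, Taf1a, Taf1b and Taf1c), against 8.86% of 32851 RefSeq promoter windows of the same length, of which a gene can have several. A GC box was in 7, against 35.7% of all promoters, and CCAAT in 3, against 37.4%. The E-box was found only in Rrn3, at 2 positions, and the NRF1 word only in Taf1a, against 7.15% and 2.71% of all promoters. No member held the TATA word, which 13.6% of all promoters held. In Rrn3 a GC box and an ETS word overlap. The CpG content, observed over expected, was 0.31 in the Polr1d window and 0.78 in Taf1a, and reached 1.13 in Polr1c, against a median of 0.38 over all promoters. These words describe the windows, and no binding was measured. A link between the words and the mRNA levels at GV or MII was not tested.

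The libraries were primed on poly(A) tails, so the transcript ends are shown next. The windows hold 30 bases around the polyadenylation signal (AATAAA or ATTAAA, in capitals) near the end of 1 GENCODE M21 transcript per gene, or, for Polr1c, around a cytoplasmic polyadenylation element (TTTTAT, which runs on into ATTAAA, all in capitals).
Polr1d, which fell most among the well-counted members: gtatatttgcctAATAAAttctctcttttg
Taf1b, with the other signal: ttttttcagaaaATTAAAataagtaataca
Ubtf, which varied most between GV oocytes: ttttttttgtatAATAAAgtgaaaaaccaa
Polr1c, signal: gccgttgttgtaAATAAAttgctcttggca
Polr1c, cytoplasmic element: ccagtcaatacaTTTTATTAAAtgtgccac
The signal began 27 bases before the end in Polr1d, counting the last base as the first, 26 in Taf1b, 25 in Ubtf and 30 in Polr1c. In the last 100 bases, AATAAA was found in 6 of 9 members, against 64.7% of 19338 genes, and ATTAAA in 4 of 9, against 20.3%. The transcript chosen for Taf1a had no annotated 3′ UTR and was left out. A cytoplasmic polyadenylation element, the word through which stored oocyte mRNAs can gain poly(A) during maturation, was searched as TTTTAT or TTTTAAT and found only in Polr1c, against 17.9% of genes. The Pumilio word TGTANATA was also found only in Polr1c, overlapping its signal, against 4.34% of genes. The gene bodies lie on 10 different chromosomes of GRCm38 (mm10), for example Polr1d at chr5:147077050-147111597, Taf1a at chr1:183388981-183410198, Rrn3 at chr16:13780708-13814839 and Ubtf at chr11:102304560-102319742 on the minus strand. An exon of Polr1a shares 185 bases with the antisense gene Gm26628, and exons of Taf1c share 584 bases with Dnaaf1 on the other strand. No strand-specific step is named, so reads there cannot be assigned with certainty. Gm26628 was listed at 0 FPKM in all 13 libraries, and Dnaaf1 had at most 6.37 estimated counts, in the first NSN GV library.

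Total counts lay between 7140416 and 8846287 per library, and 11593 to 13342 genes had at least 1 count. Fewest genes were found in the third NSN-MII library, where 12.1% of counts, more than in any other library, fell on the 10 leading genes. Oocyte markers summed to between 22427 and 34802 CPM (normalised read counts, scaled to the TMM-adjusted library total) in every library. The 12 cumulus and granulosa markers summed to 58.2–86.2 CPM in SN GV, 61.6–72.6 in NSN GV, 91.7–125 in SN-MII and 86.6–176 in NSN-MII oocytes, and 4 to 9 of them were at 0, with Foxl2 at 0 throughout. Without Cyp19a1 and Nr5a2 the sum was 0.273 to 12.7 CPM. The part of these cells in the results was not tested. Depth was not limiting for most members, but Taf1c had 0 to 9 counts at MII. CPM and FPKM are shares of a library, with no spike-in named, so an amount per oocyte was not measured, and a change in mRNA amount cannot be told apart from a change in poly(A) tail that alters priming. Labels do not say whether oocytes came from separate animals, and no batch or date is given, so p-values measure the spread between these oocytes only.

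The levels per gene length (FPKM, fragments per kilobase of transcript, scaled by library) spanned more than 2 orders of magnitude at GV. Taf1a and Polr1d led in both types. In SN GV oocytes Taf1a stood at 319 ± 27.4 FPKM (SD, n = 3) and Polr1d at 316 ± 44.2, which overlapped, and together they made up 77.4% to 79.8% of the FPKM of the 10 genes. The next tier was Taf1b (50.6 ± 5.11), the SL1 subunit related to TFIIB, then Polr1e (44.9 ± 2.88), a subunit of the Pol I heterodimer that helps opening and elongation, and Rrn3 (41.2 ± 4.18). Neighbours within that tier overlapped, and its values overlapped neither those above nor those below. Polr1a, the largest catalytic subunit, followed at 18.6 ± 4.47 FPKM, then Polr1c, the assembly subunit shared with Pol III, at 11.9 ± 3.62, Ubtf at 4.76 ± 2.54, Polr1b, the second-largest catalytic subunit, at 3.30 ± 1.40 and the SL1 subunit Taf1c at 1.21 ± 0.606.

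NSN GV oocytes had nearly the same order, with Polr1d at 324 ± 71.9 FPKM (SD, n = 3) above Taf1a at 294 ± 38.4, which overlapped. From Polr1a (12.2 ± 9.66 FPKM) down to Taf1c (1.85 ± 1.60), every neighbour overlapped the next. The catalytic subunits of the same enzyme, Polr1a and Polr1b, were thus listed at unequal mRNA levels, as were the SL1 subunits Taf1a and Taf1c. At MII the order changed. Taf1a stood apart at 168 ± 17.1 FPKM (SD, n = 4) in SN-MII and 246 ± 33.5 (SD, n = 3) in NSN-MII oocytes, with Polr1d second at 29.6 ± 1.28 and 24.4 ± 11.3. Rrn3 came next in the order, at 15.8 ± 2.52 and 17.5 ± 3.91 FPKM, and overlapped Polr1d in NSN-MII but not in SN-MII oocytes. FPKM uses a length that RSEM estimates in each library. For Polr1a the counts behind 1 FPKM varied 2.81-fold and for Polr1e 1.80-fold over 13 libraries, and for Ubtf 1.85-fold over the 12 libraries where it was high enough to compare, against a median of 1.21-fold over 6452 genes, so tests used counts.

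**Figure D1:**
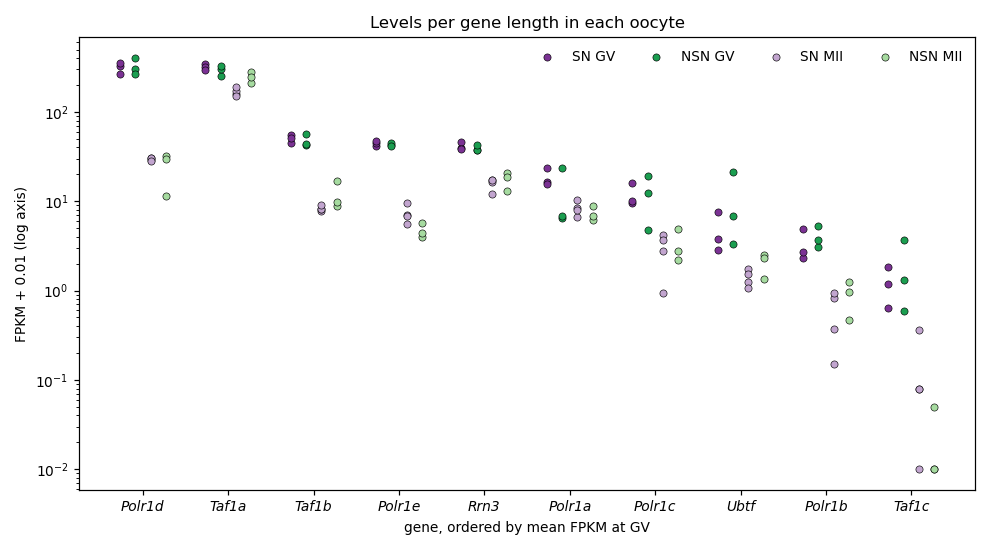
FPKM + 0.01 on a log axis for each of the 13 oocytes, with the 10 genes ordered by their mean FPKM at GV and the 4 groups in separate colours. Polr1d and Taf1a lie together at GV and part at MII, and Taf1c drops to the lower edge, where 0 FPKM is drawn.

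To ask how the mRNAs differed between stages, the 7 MII oocytes were compared with the 6 GV oocytes by edgeR's quasi-likelihood test. These are different oocytes, so no oocyte was followed from GV to MII, and MII oocytes had further culture after Cilostamide. MII oocytes are also only those that matured. The paper reports lower rates of GV breakdown and polar body extrusion in NSN than in SN oocytes. Such selection cannot be told apart here from a change within oocytes. The p-values were adjusted by Benjamini-Hochberg over all 11375 genes tested, and those under 0.05 count as calls here. All 10 members passed the filter on low counts, and all 10 were called lower at MII. Of all genes tested, 36.9% were called lower and 68.6% were called in either direction. The median log2 fold change of the members was -2.18, and that of all genes -0.10. When libraries were scaled to their totals without TMM, the median of all genes moved to -0.39, and the members' median to -2.50, with all 10 still called lower. In 8 of 10 members every MII oocyte lay below every GV oocyte in CPM, which 26.5% of all genes did. The 2 exceptions were Polr1a and Taf1a. The members' summed level was 955 to 1285 CPM in GV oocytes and 375 to 527 CPM in MII oocytes.

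Of the polymerase subunits, Polr1d was at 354, 287 and 364 CPM in the SN GV oocytes and at 282, 448 and 289.7 CPM in the NSN GV oocytes. It was at 34.6, 35.6, 36.7 and 36.3 CPM in SN-MII and at 34.6, 33.4 and 15.4 CPM in NSN-MII oocytes. The MII values were far below and, but for the third NSN-MII oocyte, within a narrow band, and the change had an adjusted p of 3.04e-10. Polr1e was at 64.8, 68.0 and 54.8 CPM in SN GV and 54.2, 66.3 and 54.5 CPM in NSN GV oocytes. At MII it was at 11.8, 10.9, 11.0 and 9.27 CPM in SN-MII and 6.67, 11.5 and 9.12 CPM in NSN-MII oocytes. It fell by 2.61 ± 0.18 on the log2 scale (SE, adjusted p = 2.19e-09), with no overlap between the stages.

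Polr1b was at 9.95, 20.9 and 10.8 CPM in SN GV oocytes and 19.1, 13.4 and 15.7 CPM in NSN GV oocytes. It was at 3.72, 0.642, 4.21 and 1.36 CPM in SN-MII and 3.93, 1.86 and 6.42 CPM in NSN-MII oocytes, and fell by 2.23 ± 0.41 on the log2 scale (adjusted p = 0.000119). The stages did not overlap, although the MII oocytes differed among themselves by up to 9.99-fold on 5 to 38 counts. Polr1c was at 9.56, 11.4 and 12.6 CPM in SN GV, 20.5, 14.9 and 5.95 CPM in NSN GV, 3.72, 4.75, 4.34 and 1.36 CPM in SN-MII and 5.12, 3.46 and 3.38 CPM in NSN-MII oocytes. It fell by 1.72 ± 0.34 on the log2 scale (adjusted p = 0.000311), and the third NSN GV oocyte came nearest to the MII range.

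Polr1a was the polymerase subunit among the members whose stages overlapped. It was at 55.3, 60.3 and 63.0 CPM in SN GV and 39.2, 65.3 and 49.8 CPM in NSN GV oocytes. It was at 18.4, 45.3, 45.5 and 30.9 CPM in SN-MII and 38.2, 29.7 and 27.7 CPM in NSN-MII oocytes. Its fall of 0.73 ± 0.21 on the log2 scale (adjusted p = 0.0063) was 1.65-fold, and the first NSN GV oocyte lay below 2 of the SN-MII oocytes.

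Of the initiation factors, Rrn3 was at 152, 174 and 135 CPM in SN GV and 122, 145 and 165 CPM in NSN GV oocytes. It was at 70.9, 66.3, 70.2 and 53.3 CPM in SN-MII and 75.7, 71.5 and 60.5 CPM in NSN-MII oocytes. The stages did not overlap, and the fall of 1.15 ± 0.14 on the log2 scale (adjusted p = 1.98e-06) was 2.22-fold, less than the members' median. Ubtf was at 12.1, 8.64 and 23.3 CPM in SN GV and 61.0, 24.0 and 11.1 CPM in NSN GV oocytes, a 7.06-fold spread over the GV oocytes. At MII it was at 3.58, 3.34, 6.44 and 3.41 CPM in SN-MII and 7.50, 6.80 and 3.04 CPM in NSN-MII oocytes, and it fell by 2.13 ± 0.39 on the log2 scale (adjusted p = 0.000118). Every MII oocyte lay below every GV oocyte for Ubtf.

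Of the SL1 subunits among the members, Taf1a fell least and Taf1c had the largest fitted fall, a value that depends on the prior count. Taf1a was at 441, 394 and 342 CPM in SN GV and 269, 384 and 410.5 CPM in NSN GV oocytes. It was at 216, 229, 256 and 217 CPM in SN-MII and 261, 345 and 379 CPM in NSN-MII oocytes, so that the NSN-MII oocytes lay within the GV range or close to it (adjusted p = 0.0117 for the stages as a whole). Taf1b was at 121, 95.2 and 99.6 CPM in SN GV and 77.8, 120.3 and 97.2 CPM in NSN GV oocytes. It was at 17.1, 17.6, 17.1 and 21.3 CPM in SN-MII and 32.7, 18.2 and 22.5 CPM in NSN-MII oocytes, fell by 2.27 ± 0.18 on the log2 scale (adjusted p = 1.15e-08) and did not overlap between stages.

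Taf1c was the member of lowest level. It was at 2.17, 4.02 and 4.55 CPM in SN GV and 10.6, 4.62 and 1.52 CPM in NSN GV oocytes, on 12 to 101 counts. In SN-MII oocytes it had 9, 0, 2 and 2 counts and in NSN-MII oocytes 0, 1 and 0 counts, where 3 counts would be 0.357 to 0.507 CPM. The call had an adjusted p of 6.48e-05, but the fitted log2 fold change of -4.78 depends on the prior count. From the summed counts, scaled by library, GV was above MII 8.41-fold in SN oocytes (95% interval 4.67 to 16.4, 89 against 13 counts) and 132-fold in NSN oocytes (23.4 to 5255, 150 against 1 count). These exact intervals cover counting error only.

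**Figure D2:**
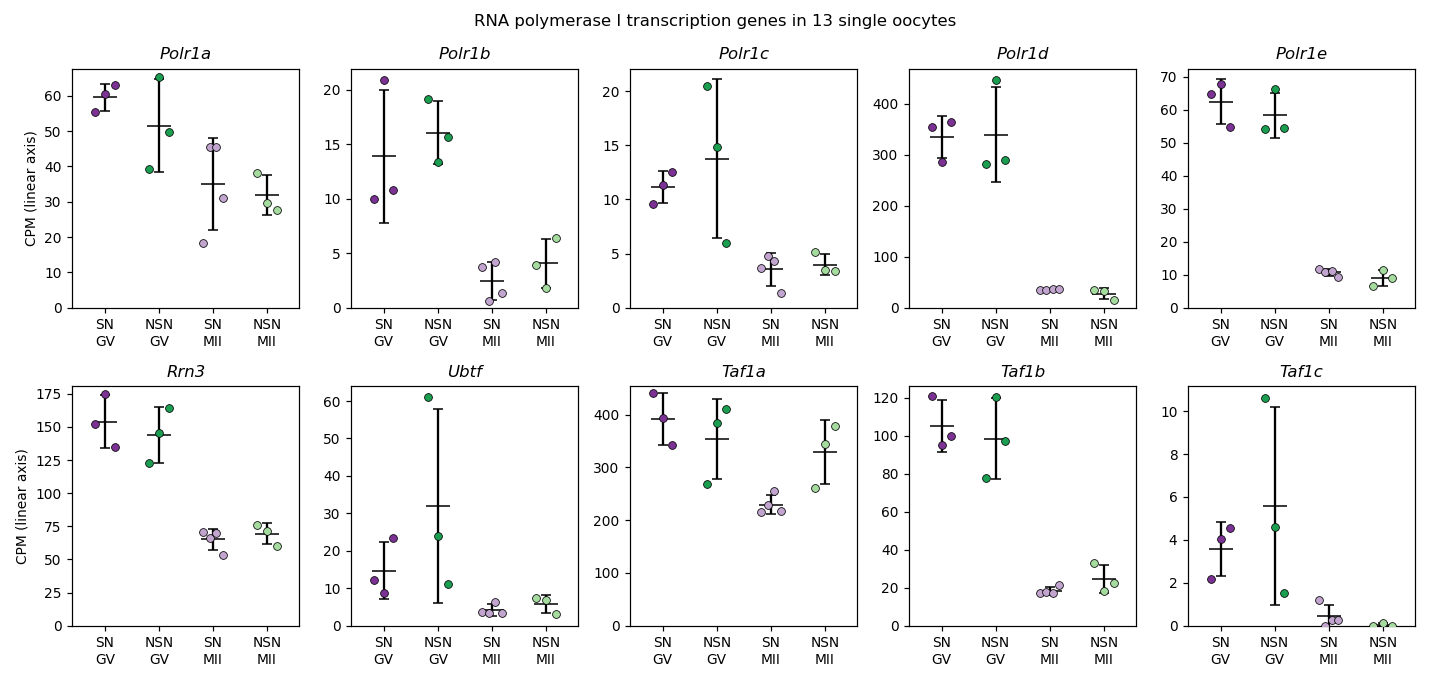
CPM of each gene on a linear axis from 0, with 1 point per oocyte, a dash at the group mean and bars of 1 SD (n = 3, 3, 4 and 3 from left to right in each panel). The MII points lie below all GV points except in Polr1a, where SN-MII points at 45.3 and 45.5 CPM lie above the lowest GV point, and in Taf1a, where NSN-MII points, at 261 to 379 CPM, reach into the GV range.

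The same comparison was then made within each type. In SN oocytes all 10 members were called lower, against 31.2% of all genes, with a median log2 fold change of -2.14. The stages did not overlap in any of the 10 in SN oocytes, which 34.5% of all genes showed in this direction. In NSN oocytes 8 of 10 were called lower, against 30.8% of all genes, with a median of -1.999, and 9 of 10 had no overlap between stages, against 33.2% of all genes in this direction. Both medians stayed at those values with Taf1c set to its count ratio. The falls in SN and NSN oocytes were -3.23 ± 0.26 and -3.60 ± 0.30 for Polr1d, -2.54 ± 0.24 and -2.68 ± 0.27 for Polr1e, and -1.24 ± 0.19 and -1.06 ± 0.21 for Rrn3 (log2, SE). For Taf1b they were -2.52 ± 0.24 and -2.01 ± 0.26, for Ubtf -1.81 ± 0.52 and -2.46 ± 0.57, for Polr1b -2.48 ± 0.55 and -1.99 ± 0.59, and for Polr1c -1.65 ± 0.47 and -1.78 ± 0.51. These 7 genes had adjusted p between 3.70e-08 and 0.00889 in both types, but the Ubtf call in SN oocytes was lost without the third SN GV oocyte (-1.31, adjusted p = 0.0643).

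The 2 members not called in NSN oocytes, named after their values were seen, were Polr1a and Taf1a. Polr1a changed by -0.76 ± 0.29 in SN oocytes (log2, adjusted p = 0.033) and by -0.69 ± 0.31 in NSN oocytes (adjusted p = 0.0713), nearly the same size. Its SN call was lost when any of the 3 SN GV oocytes or the SN-MII oocyte numbered 1 or 4 was left out, with values between -0.81 and -0.55. Its NSN value was called without the first NSN GV oocyte (-0.85, adjusted p = 0.0477) or, with little change in size, without the first SN-MII oocyte (-0.69, adjusted p = 0.0366), and also without TMM scaling (-0.95, adjusted p = 0.0232). Taf1a changed by -0.77 ± 0.19 in SN oocytes (adjusted p = 0.00289) and by -0.11 ± 0.21 in NSN oocytes (adjusted p = 0.678). Without the third NSN GV oocyte the NSN value was 0.02, and without TMM scaling it was -0.40 (adjusted p = 0.0504). Whether the types differ in such a change is asked by the interaction of type and stage, which called 0 of the 10 members, and 0.0176% of all genes, at an adjusted p under 0.05. For Taf1a the difference of changes was 0.66 ± 0.29 on the log2 scale, with an unadjusted p of 0.0334 and an adjusted p of 0.888 (edgeR). For Taf1b it was 0.52 ± 0.35, with an unadjusted p of 0.154. For Taf1c (-3.54 ± 1.66, a value that depends on the prior count), the adjusted p was 0.926 and the unadjusted p 0.0481. Taf1a and Taf1c were the 2 of 10 members that had an unadjusted p under 0.05, as did 5.33% of all genes. No member's change was therefore shown to differ between the types.

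**Figure D3:**
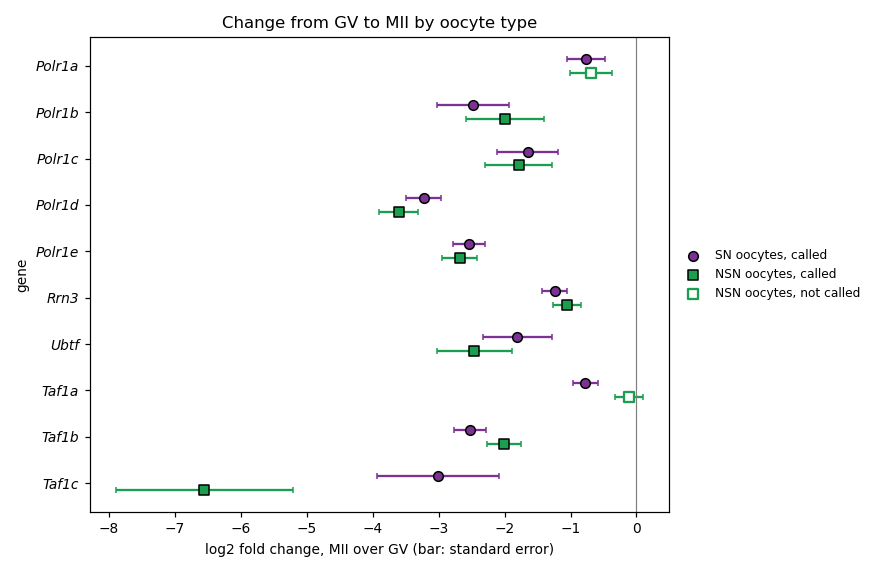
Log2 fold change from GV to MII for each gene in SN oocytes (circles) and NSN oocytes (squares), with bars of 1 standard error, filled where the adjusted p was under 0.05. Polr1a and Taf1a in NSN oocytes are the open symbols, and Taf1c in NSN oocytes, at -6.55, rests on 1 count at MII.

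The oocyte types were then set against each other at each stage to ask whether the machinery's mRNAs went with the nucleolar type. At GV, edgeR called 0 of the 10 members and 0% of the 10839 genes tested, and DESeq2 called 0 genes as well, while 190 genes (1.75%) had an unadjusted p under 0.05, none of them a member. SN and NSN oocytes overlapped in all 10, while 6.03% of all genes had no overlap. The lowest p was that of Ubtf, at 1.18 ± 0.64 (log2, NSN over SN, unadjusted p = 0.0982). The first NSN GV oocyte, at 61.0 CPM, stood above the 5 other GV oocytes, at 8.64 to 24.0 CPM, and without it the difference was 0.21. That oocyte was also the highest for Polr1c and Taf1c, and was the lowest of the 6 for 6 members, namely Polr1a, Polr1d, Polr1e, Rrn3, Taf1a and Taf1b. Its TMM factor of 1.26 was the largest of the 13 libraries. Taf1c differed by 0.70 ± 0.71, which turned to -0.26 without the same oocyte, and Polr1a by -0.20 ± 0.22. The other 7 differences lay between -0.14 and 0.35.

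At MII, 9 members were tested, since Taf1c did not pass the filter, and 0 were called, against 0.259% of the 10028 genes tested. DESeq2 also called 0 of the members, and 1 member, Taf1a, had an unadjusted p under 0.05, as had 9.38% of all genes. Taf1a was higher in NSN-MII oocytes by 0.51 ± 0.16 on the log2 scale (unadjusted p = 0.00855, adjusted p = 0.28). All 3 NSN-MII oocytes (261 to 379 CPM) lay above all 4 SN-MII oocytes (216 to 256 CPM), which 4.61% of the genes tested showed in this direction. With each oocyte left out in turn the value stayed between 0.41 and 0.65, with adjusted p between 0.193 and 0.586. Taf1b differed by 0.42 ± 0.27 (unadjusted p = 0.148) and by 0.14 without the first NSN-MII oocyte. Polr1d differed by -0.35 ± 0.29 (unadjusted p = 0.246), and by -0.06 without the third NSN-MII oocyte, where it was at 15.4 CPM. The remaining 6 members differed by -0.24 to 0.69.

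**Figure D4:**
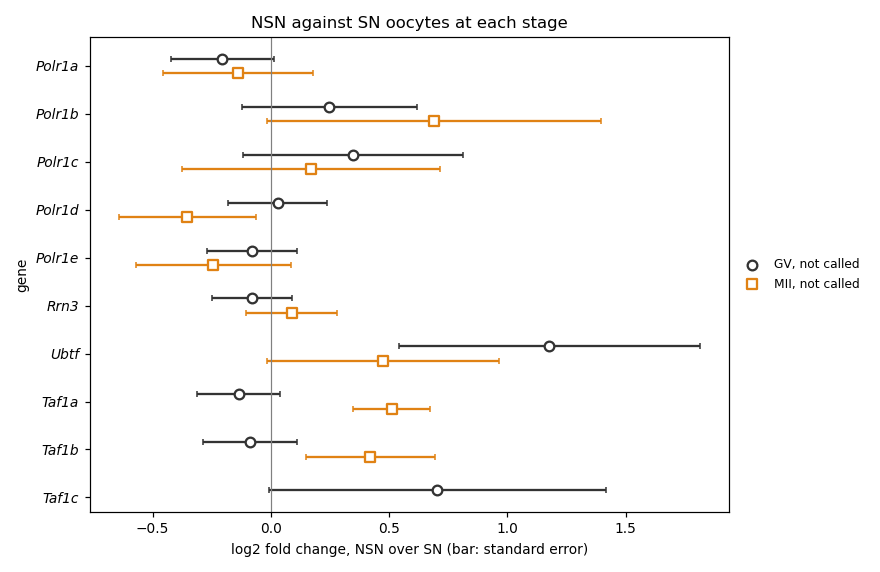
Log2 fold change of NSN over SN oocytes for each gene at GV (circles) and at MII (squares), with bars of 1 standard error. All symbols are open because no member was called, and Taf1c has no MII symbol because it was not tested there.

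The rest of the pathway was described with lists that, like the members, were chosen with earlier results of these data known. The other Pol I subunits went in both directions. Twistnb, a stalk subunit, and Cd3eap, the partner of Polr1e in the heterodimer, were called higher at MII, by 0.72 ± 0.23 and 0.74 ± 0.23 (log2, SE, adjusted p = 0.0112 and 0.00962), and their stages overlapped. The Cd3eap call was lost without TMM scaling (0.47). Znrd1, the small subunit that takes part in RNA cleavage, fell by 6.30 ± 0.37 on the log2 scale (adjusted p = 3.81e-10). It was at 31.5 to 46.6 CPM in GV oocytes and at 0 to 1.07 CPM in MII oocytes, on 0 to 9 counts. So the partners Polr1e and Cd3eap had opposite directions, at -2.61 and 0.74. Within types, Znrd1 changed by -6.78 in SN and -5.82 in NSN oocytes. Twistnb and Cd3eap were not called in NSN oocytes, at 0.66 and 0.69 on the log2 scale. Twistnb was called higher in SN oocytes (0.77, adjusted p = 0.0482). Cd3eap was called in SN oocytes (0.80 ± 0.32, adjusted p = 0.0434). That call was lost in 7 of 13 fits that left out an oocyte, namely SN GV oocytes 2 and 3, NSN GV oocyte 3, SN-MII oocytes 2, 3 and 4 and NSN-MII oocyte 2, with values between 0.58 and 0.85.

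Of the 5 subunits shared by Pol I, II and III, 4 were called lower and 0 higher at MII, with a median of -2.63. These lists are small, and their counts stand beside 36.9% of all genes called lower and 31.7% called higher. Polr2k fell most, by 4.32 ± 0.25 on the log2 scale (adjusted p = 2.42e-10), from 46.4–97.0 CPM at GV to 1.69–4.88 CPM at MII. Polr2f was the subunit not called, at 0.07. Of 5 other initiation and termination factors, 4 were tested, and 2 were called lower, with a median of -0.52. The SL1 subunit Taf1d fell most, by 0.83 ± 0.25 on the log2 scale (adjusted p = 0.00685), a change that was -0.09 and not called by limma on log2(FPKM + 1). In NSN oocytes it changed by -1.06 ± 0.37 (adjusted p = 0.0212), which was lost without the second NSN GV (-0.63) or the second NSN-MII oocyte (-0.95). Tbp, which SL1 shares with the other polymerases' factors, was the other call, at -0.61.

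Of 12 chromatin factors and regulators of ribosomal DNA, 11 were tested, and 4 were called higher and 4 lower at MII, with a median of -0.04. Kdm2a, a histone demethylase, rose by 1.72 ± 0.22 (log2, adjusted p = 3.11e-06), and Sirt7, a deacetylase that binds Pol I, fell by 2.57 ± 0.26 on the log2 scale (adjusted p = 2.23e-07). Tcof1, the Treacle protein that works with UBTF, had the largest rise in SN oocytes, at 1.55 ± 0.27, and Kdm2a in NSN oocytes, at 1.94 ± 0.32. Of 11 subunits specific to Pol III, 5 were called lower and 0 higher, with a median of -0.73. The shares called lower among the Pol III subunits and the regulators were near that of all genes. Crcp fell most, by 3.91 ± 0.41 on the log2 scale (adjusted p = 3.40e-07), from 10.9–24.4 CPM to 0.273–2.20 CPM. In none of these 5 lists was a gene called between NSN and SN oocytes at GV or at MII, or in the interaction.

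**Figure D5:**
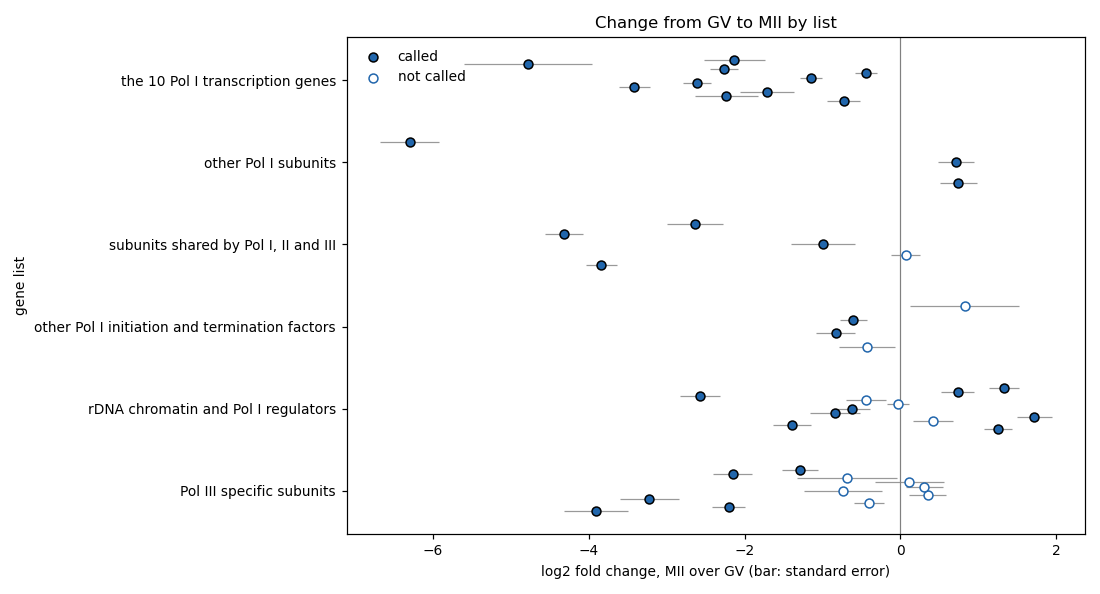
Log2 fold change from GV to MII for the 10 genes and for the 5 other lists, with 1 point per tested gene, bars of 1 standard error and filled points where the adjusted p was under 0.05. The 10 genes lie wholly below 0, between -4.78 and -0.44, while each of the 5 other lists has points on both sides of 0. The other Pol I subunits include 2 called higher, Twistnb and Cd3eap. The 10 genes and the lists were chosen with earlier results of these data known, so the split depends on that grouping.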

How the data were processed

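Single oocytes were sequenced after SMART-seq2 amplification. According to the study's methods, the authors trimmed reads with Trim Galore 0.4.4, mapped them to mm10 with Bowtie2 2.3.5 and quantified genes with RSEM 1.2.28. The deposited expected counts (1 table per stage) share out reads that map to several genes, and the deposited FPKM values scale counts by library and by an estimated gene length. The counts were rounded here, filtered with filterByExpr, scaled by TMM and tested with edgeR 4.0.16 (R 4.3.3), in the fits of 1 stage for NSN against SN and of all 13 libraries for MII against GV and the interaction. Standard errors of the edgeR log2 fold changes were derived from the fold change and the F statistic of its test. The common biological coefficient of variation was 0.352 at GV, 0.344 at MII and 0.364 over all. The alternatives were DESeq2 1.42.0, DESeq2 size factors, no filter, limma 3.58.1 on log2(FPKM + 1) or with 0.1, a mean FPKM of at least 1, the replicate number as a block, 1 fit of all libraries and each library left out. Scaling to library totals without TMM was chosen after seeing the data. The main edgeR and DESeq2 fits were first tested on simulated data, for the type comparisons, MII against GV and the interaction. The other alternatives and the stage comparisons within a type were not simulated. Far fewer genes were changed in the simulation than were called between stages in the data. No library duplicated another of its group, and libraries of different groups were not compared in this way.

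The 10 genes and the lists were chosen with earlier results of these data known. Log2 fold changes with errors are given for called members or, where fewer than 3 were called, for the 3 of lowest p. The lists' called genes of largest rise and fall are named for each stage comparison. Polr2k, Sirt7 and Crcp were also the largest called falls of their lists within SN and within NSN oocytes. Further genes were named after their values were seen. Symbols were matched to GENCODE M21 (99.7% of 18939), and the promoters of all 10 genes to RefSeq. Sequences of the encoded proteins were not used here.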

Additional observations from a re-analysis of the deposited data

Results flagged for a closer look

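In the SN-MII group, the only one with 4 oocytes, 2 members had an oocyte far from the others by Dixon's ratio of gap to range, past its 95% critical value. Ubtf had a ratio of 0.922, from the third oocyte at 6.44 CPM against 3.34 to 3.58 CPM in the others. Taf1b had a ratio of 0.878, from the oocyte numbered 4 at 21.3 CPM against 17.1 to 17.6 CPM. The 10 members were looked at, and the critical value is set so that chance flags about 1 in 20 groups. The share of all genes past it was not set beside this, so whether 2 of 10 is unusual was not tested. Both oocytes remained below every GV oocyte for the gene concerned, and groups of 3 oocytes were not examined in this way.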

How the results depend on the processing

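The counts of members called were within 1.5 times the reported ones in all 115 combinations of comparison and alternative. With 1 oocyte left out, the count was between 10 and 10 for MII against GV, 8 and 10 in SN oocytes, 8 and 9 in NSN oocytes, and 0 in the type comparisons and the interaction. In the same 3 stage comparisons, 4058 to 4306, 3216 to 3777 and 3245 to 3544 of the 11318 to 11742 genes tested were called lower. Of the single genes, 2 turned direction, both uncalled: Taf1c between types at GV (-0.26 without the first NSN GV oocyte, with -0.26 to 1.15 over all oocytes left out) and Taf1a in NSN oocytes (0.017 without the third NSN GV oocyte, with -0.27 to 0.017 over all). Under alternatives that kept every oocyte, 15 single-gene results lost a call, 1 gained one and 450 stayed the same. With 1 oocyte left out, 15 lost a call, 2 gained one and 696 stayed the same. Of all genes, NSN against SN at MII called 26 with edgeR, 221 with DESeq2, 89 without a filter, 69 in 1 fit of all libraries, 16 without TMM, 9 or 5 with limma and 2 to 233 with 1 oocyte left out. Without TMM, MII against GV called 2742 genes higher and 4722 lower, in place of 3605 and 4195. The deviations of same-numbered oocytes from their group had correlations of -0.42 to 0.21. Differently numbered oocytes were not set beside them, so whether the numbers pair oocytes was not settled. With the replicate block, 10 members were called for MII against GV, 9 in SN oocytes (Polr1a at -0.76, adjusted p = 0.0683), 8 in NSN oocytes and 0 elsewhere. Of all 11375 genes, the block fit called 4050 lower for MII against GV, 3196 in SN oocytes and 3391 in NSN oocytes. Depth limits Taf1c at MII, and 3 or 4 oocytes per group limit the type comparisons.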
